A study of Mus with 15 samples.

Results

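Cells meet superoxide and hydrogen peroxide with a small set of enzymes, and the genes described here are those of mouse fat before and after grafting. The 65 genes are the protein-coding ones whose symbols name glutathione transferases (Gst, Mgst), glutathione peroxidases (Gpx), peroxiredoxins (Prdx), superoxide dismutases (Sod), catalase (Cat), thioredoxins with their reductases and related proteins (Txn) or glutaredoxins (Glrx). They were picked by symbol from 55471 genes in all, of which 21933 are protein-coding. Of the 65, 56 passed a filter on low counts and were tested, and 9 did not. RNA was sequenced from 3 groups of 5 samples, all of adipose tissue from wild-type C57BL/6 mice aged 7 weeks, which were fat grafts at day 3, fat grafts at day 7 and control tissue. The labels name no genetic change or drug for any group. They do not give the fat depot, the site or host of the graft, or whether replicates were separate animals. The p-values below therefore rest on how much these samples vary, which may be technical.

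Superoxide dismutases turn superoxide into hydrogen peroxide, and catalase, glutathione peroxidases and peroxiredoxins remove the peroxide. Glutathione peroxidases draw their electrons from glutathione, whereas most peroxiredoxins draw them from thioredoxin, which thioredoxin reductases recharge with NADPH. Glutaredoxins use glutathione to reduce disulfides or to handle iron-sulfur clusters, and glutathione transferases attach glutathione to lipid aldehydes and other reactive compounds. Cytosol, mitochondria, endoplasmic reticulum and peroxisomes hold different members of these families. Adipocytes are known to carry transferases for lipid aldehydes, while phagocytes both make oxidants and carry their own defences.

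Total counts were 23.7 to 29.4 M in day 3 grafts, 20.2 to 32 M in day 7 grafts and 17.1 to 31.8 M in controls. Levels are CPM, counts scaled to a common library size, changes are fitted log2 fold changes ± SE with n = 5 per group, and genes count as called where limma's moderated test, Benjamini-Hochberg adjusted over all genes, gave p under 0.05. Summed levels of 12 adipocyte markers were 1138 to 4262 CPM in day 3 grafts, 328 to 821 CPM in day 7 grafts and 11790 to 35017 CPM in controls, and all 12 fell at both days. For 12 macrophage markers the sums were 5145 to 11664, 9813 to 14435 and 1362 to 3885 CPM in the same order of groups, and 11 of 12 rose at both days. Sums of 8 fibroblast and progenitor markers were 17822 to 31421 CPM, 30129 to 35357 CPM and 1828 to 8120 CPM, with 5 rising at day 3 and 6 rising and 1 falling at day 7. No marker of these lists was at 0 in a whole group. Control 4 stood apart, with adipocyte markers at 35017 CPM, against 11790 to 15663 CPM in the other controls, and B cell and lymph node markers at 194 CPM, against 1800 to 2687 CPM. It also had the lowest scaling factor of the 15 libraries, 0.746, which raises its CPM, and it was the highest control for many of the genes below. Control 2 held 3964 CPM of 10 skeletal muscle markers, against 26.8 to 395 CPM in the other controls. In such bulk samples, fewer cells of a type and less RNA per cell cannot be told apart, and the part of these shifts in the changes below was not tested.

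In day 3 grafts 17 of the 56 tested members were higher than in controls, 28 were lower and 11 were not called. Of all 16051 genes tested, 30.1% were higher and 30.2% lower, so the share of members that fell was larger than that of all genes and the share that rose was close to it. In day 7 grafts 13 members were higher, 30 lower and 13 not called, against 32.3% higher and 28.4% lower over all genes. The median log2 change of the members was -0.52 at day 3 and -0.46 at day 7, where that of all genes was -0.014 and 0.0311. Both comparisons share the same controls, and 13 members were called higher in both, 26 lower in both and none in opposite directions. Without control 4 the counts were 20 higher and 27 lower at day 3 and 17 higher and 29 lower at day 7. The deposited TPM is scaled per gene length. On log2(TPM + 1) the members called were 21 higher and 22 lower at day 3. At day 7 they were 19 higher and 24 lower. On that scale 39.3% of the 16051 genes rose and 18.5% fell at day 3, and their median log2 change was 0.216. For day 7 the shares were 46.1% and 16.1% and the median was 0.334. What in the change of scale moved these counts was not tested. The families moved in different ways, as the plot of fold changes shows.

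**Figure D1:**
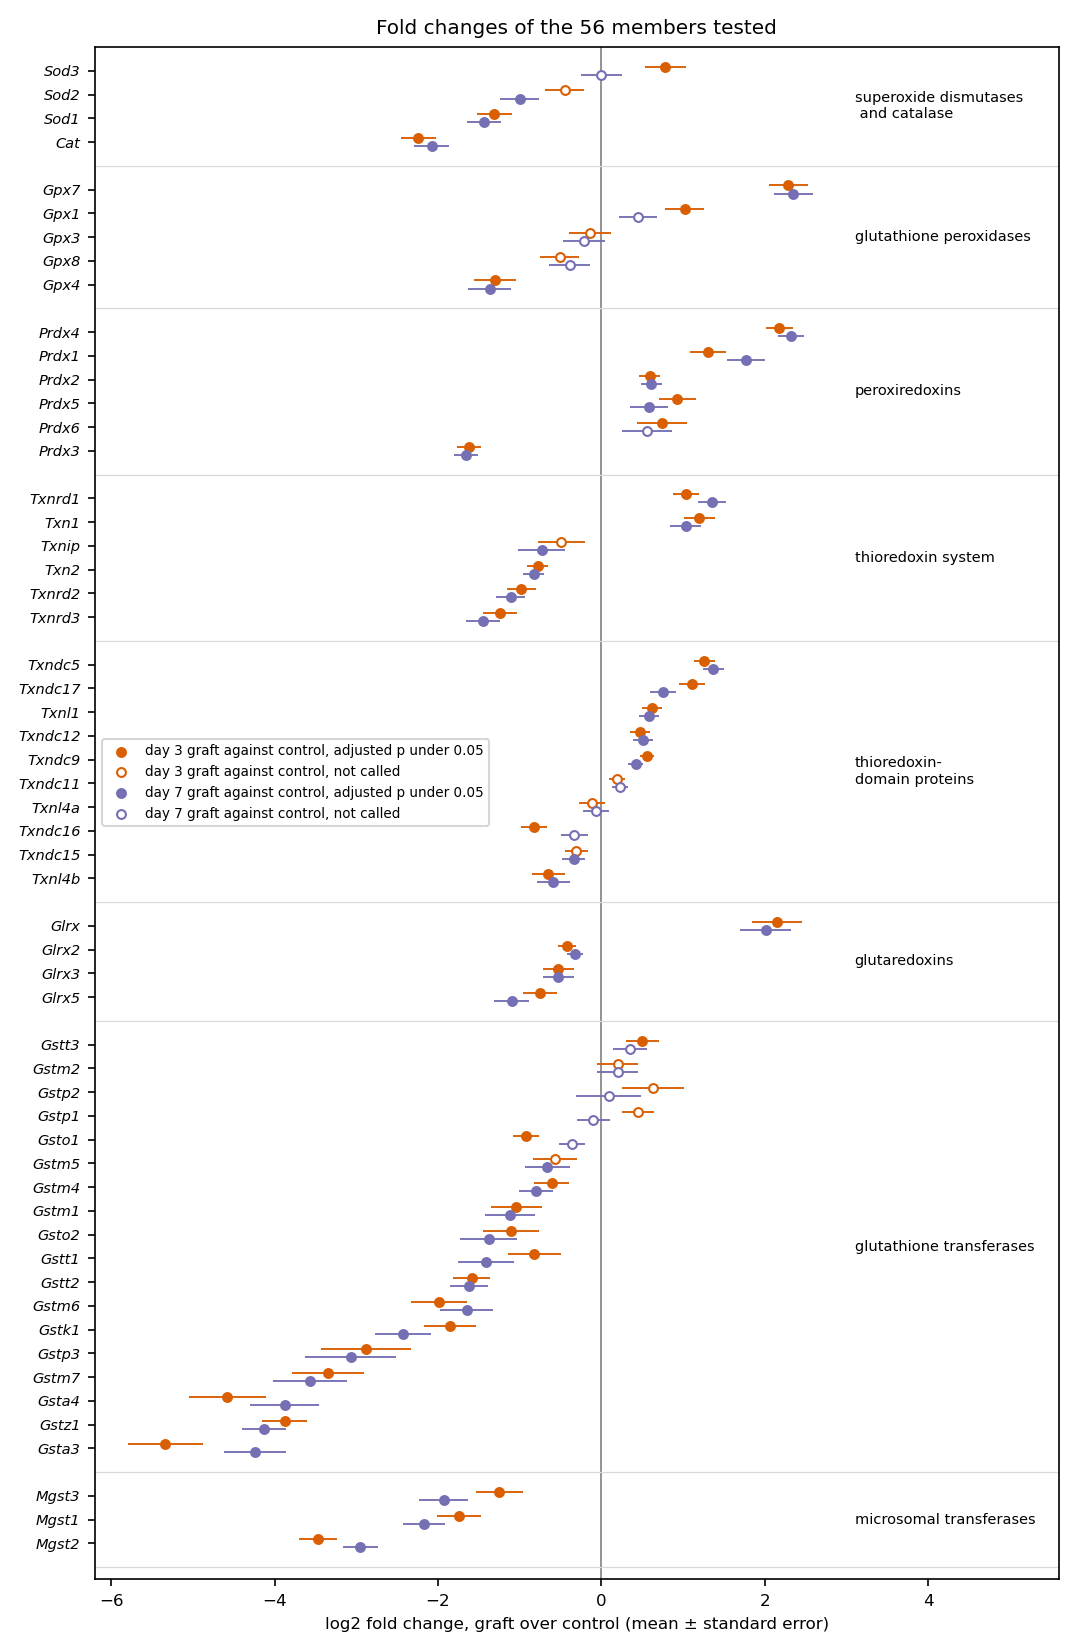
Fitted log2 fold change ± standard error of the 56 members tested, grouped by family, with day 3 grafts against controls in orange and day 7 grafts against controls in purple. Filled points passed an adjusted p under 0.05, and Gsta3 at -5.34 and Gpx7 at 2.35 mark the 2 ends of the range.

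Of the 4 superoxide dismutases and catalase, 2 were lower and 1 higher at day 3, and 3 were lower at day 7. Cat, the peroxisomal enzyme that splits hydrogen peroxide, and Sod1, the copper-zinc dismutase of the cytosol, fell at both days, the mitochondrial Sod2 fell at day 7, and the extracellular Sod3 rose at day 3. Cat had 133, 158, 139.8, 138 and 144 CPM in day 3 grafts, 139, 178, 142, 175 and 159.7 CPM in day 7 grafts and 666, 520.0, 426, 1294 and 726 CPM in controls. The highest graft stood far below the lowest control, and Cat fell by 2.24 ± 0.21 at day 3 (adjusted p = 8.64e-07) and by 2.08 ± 0.21 at day 7 (adjusted p = 1.44e-06). Sod1 had 131, 159, 178, 156 and 149 CPM in day 3 grafts, 123, 148, 134, 129.8 and 174 CPM in day 7 grafts and 365, 397, 274, 735 and 282 CPM in controls. No graft reached a control, although control 4 lay well above the other 4 controls. The log2 change of Sod1 was -1.31 ± 0.21, adjusted p = 9.55e-05, at day 3 and -1.44 ± 0.21, adjusted p = 3.83e-05, at day 7.

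Sod2, the manganese enzyme of mitochondria, had 109 to 199 CPM in day 3 grafts, 61.6 to 132 CPM in day 7 grafts and 116 to 264 CPM in controls. Its change was -0.45 ± 0.24, adjusted p = 0.116, at day 3, which did not pass, and -1.0 ± 0.24, adjusted p = 0.0022, at day 7. Without control 3, or without day 3 graft 4, the day 3 change also passed, at -0.62 and -0.60. Sod3 had 129, 238, 170.4, 282 and 199 CPM in day 3 grafts, 132, 80.9, 138, 108 and 124 CPM in day 7 grafts and 100.5, 103, 78.5, 207 and 116 CPM in controls. Day 3 grafts were high and overlapped only with control 4, while all day 7 grafts lay within the range of controls. Sod3 rose by 0.78 ± 0.25 at day 3 (adjusted p = 0.0152) and changed by 0.00 ± 0.25 at day 7 (adjusted p = 0.994).

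Glutathione peroxidases split by member. Gpx7, which resides in the endoplasmic reticulum and serves disulfide formation, rose at both days, Gpx1, the abundant selenoenzyme of cytosol and mitochondria, rose at day 3, and Gpx4, which reduces lipid hydroperoxides in membranes, fell at both days. Gpx1 had 602, 511, 899, 691 and 623 CPM in day 3 grafts, 394, 485, 437, 449 and 437 CPM in day 7 grafts and 247, 253, 243, 636 and 370.4 CPM in controls. Day 3 grafts were all above 4 of the controls and control 4 lay among them. The change was 1.02 ± 0.24, adjusted p = 0.00201, at day 3 and 0.45 ± 0.23, adjusted p = 0.111, at day 7, and without control 4 the day 7 change became 0.69 (adjusted p = 0.00126). Gpx4 had 168, 209, 250.1, 206 and 182 CPM in day 3 grafts, 169, 202, 182, 181 and 230.3 CPM in day 7 grafts and 576, 529.7, 329.9, 1053 and 287 CPM in controls. Every control lay above every graft, and the nearest were control 5 and day 3 graft 3. Gpx4 changed by -1.3 ± 0.26, adjusted p = 0.000602, at day 3 and by -1.37 ± 0.26, adjusted p = 0.000377, at day 7.

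Gpx7 had 55.8, 60.2, 49.7, 74.9 and 70.1 CPM in day 3 grafts, 68.8, 73.8, 66.9, 58.7 and 54.7 CPM in day 7 grafts and 10.5, 8.35, 7.86, 22.1 and 18.6 CPM in controls. The grafts did not overlap with the controls, and the change was 2.29 ± 0.24, adjusted p = 2.4e-06, at day 3 and 2.35 ± 0.24, adjusted p = 1.76e-06, at day 7. The other enzyme of the endoplasmic reticulum, Gpx8, had 82.8 to 109 CPM in day 3 grafts, 88.8 to 114 CPM in day 7 grafts and 82.5 to 267 CPM in controls, and its changes of -0.51 and -0.39 did not pass (adjusted p = 0.0832 and 0.177). Both were called without control 3, at -0.69 and -0.57, and the day 3 change also without control 5, at -0.66. Gpx3, the secreted plasma enzyme, which fat also makes, changed by -0.14 ± 0.26 and -0.21 ± 0.26 (adjusted p = 0.66 and 0.494). Its levels ran from 349 to 743 CPM at day 3 and 451 to 756 CPM at day 7, against 502 to 1239 CPM in controls, where control 4 was far above the other libraries. Gpx2 and Gpx6 had 0 counts in every library and Gpx5 at most 0.0947 CPM.

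Peroxiredoxins were the family with the largest share of members rising at both days. At day 3, 5 of 6 rose and Prdx3, the mitochondrial member, fell, and at day 7, 4 rose, Prdx3 fell and Prdx6 was not called. Prdx1 had 1754, 894, 1312, 1399 and 991 CPM in day 3 grafts, 1791, 1534, 1488, 1677 and 2127 CPM in day 7 grafts and 466, 441, 338, 781 and 602 CPM in controls. Prdx1, a thioredoxin-dependent enzyme of the cytosol, thus stood above all controls in every graft, the nearest being day 3 graft 2 and control 4. It rose by 1.3 ± 0.22 at day 3 (adjusted p = 0.000171) and by 1.77 ± 0.23 at day 7 (adjusted p = 1.29e-05). Prdx4 had 99.9, 97.0, 85.3, 117 and 102 CPM in day 3 grafts, 110.0, 118, 112, 94.2 and 119 CPM in day 7 grafts and 18, 16.4, 19.8, 26.6 and 31.6 CPM in controls. This member of the endoplasmic reticulum had graft levels several times those of any control, with changes of 2.18 ± 0.16, adjusted p = 1.7e-07, at day 3 and 2.32 ± 0.16, adjusted p = 8.22e-08, at day 7.

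Prdx3 had 65.1, 61.7, 70.1, 59.0 and 63.7 CPM in day 3 grafts, 60.9, 64.9, 61.7, 56 and 67.5 CPM in day 7 grafts and 207, 189, 130.0, 292 and 199.5 CPM in controls. All 10 grafts lay within 56 to 70.1 CPM and below the lowest control, and Prdx3 fell by 1.62 ± 0.15 at day 3 (adjusted p = 9.08e-07) and by 1.66 ± 0.15 at day 7 (adjusted p = 6.27e-07). Prdx5, which is found in mitochondria, peroxisomes and the cytosol, rose by 0.93 ± 0.23 at day 3 (adjusted p = 0.00299) and by 0.58 ± 0.23 at day 7 (adjusted p = 0.0395). Its day 7 call ended without any 1 of control 1, 2, 3 or 5 or day 7 graft 1 or 5, where adjusted p ran from 0.0544 to 0.134. In those fits the day 7 change of Prdx5 was 0.38 to 0.60. Prdx2, the peroxiredoxin best known from red cells, rose by 0.59 ± 0.13 and 0.61 ± 0.13 (adjusted p = 0.00111 and 0.000786), with 180.0 to 201 CPM at day 3, 179 to 202 CPM at day 7 and 100.2 to 181 CPM in controls. Control 4 was the highest control, and without it grafts and controls did not overlap. Sums of the erythroid markers were 230 to 10562 CPM at day 3, 577 to 3956 CPM at day 7 and 135 to 2748 CPM in controls, where control 4 was again highest and the other 4 had 135 to 365 CPM. Day 3 graft 2 had the highest sum, 10562 CPM, with 180.0 CPM of Prdx2, the lowest of the day 3 grafts. Day 3 graft 4 had the lowest sum, 230 CPM, with 201 CPM of Prdx2, the highest of that group. At day 7 the highest sum was in graft 3, with 200.5 CPM of Prdx2, and the lowest in graft 2, with 202 CPM. Of 7 erythroid markers tested, 3 rose at day 3 and 2 at day 7, and their part in the change of Prdx2 was not tested. Prdx6, which acts with glutathione and also has phospholipase activity, changed by 0.74 ± 0.31, adjusted p = 0.0494, at day 3 and 0.56 ± 0.31, adjusted p = 0.128, at day 7. That day 3 call ended when any 1 library other than control 4, day 3 graft 5 or day 7 graft 2 or 5 was left out (adjusted p from 0.0501 to 0.134), and the day 7 change passed without control 4, at 0.74 (adjusted p = 0.0375). Where the day 3 call of Prdx6 ended, its change was 0.57 to 0.80.

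**Figure D2:**
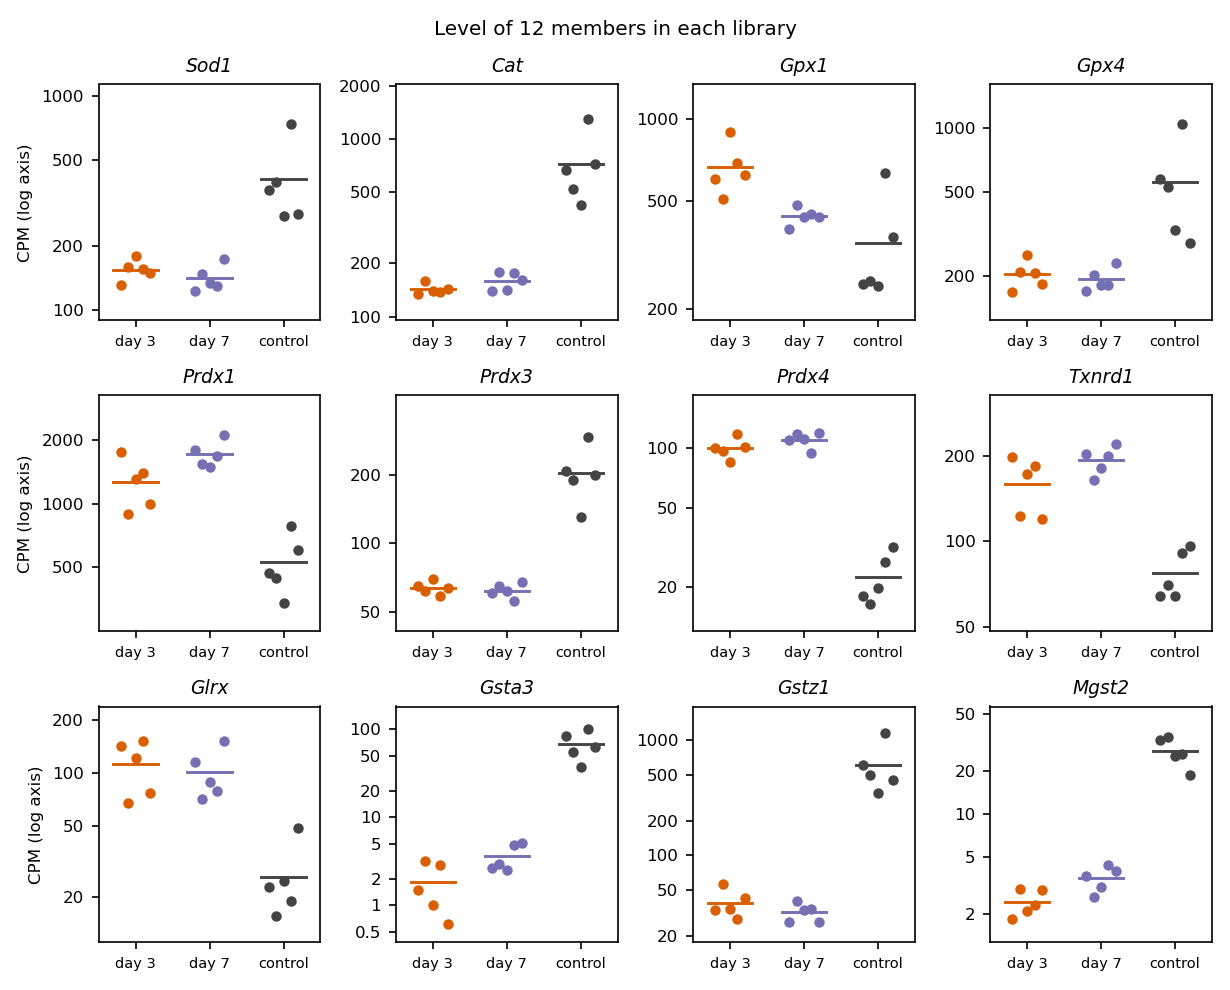
Level of 12 members in each library, as CPM on log axes that differ between panels, with day 3 grafts, day 7 grafts and controls from left to right and a bar at each mean of 5 libraries. Every graft lies above every control for Prdx1, Prdx4, Txnrd1 and Glrx and below every control for Sod1, Cat, Gpx4, Prdx3, Gsta3, Gstz1 and Mgst2, while for Gpx1 control 4 lies among the grafts. The 12 were picked for the plot. Other members, such as Prdx2, Sod2 and Gstt3, overlapped with controls, and the share of all genes without overlap was not counted.

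Of the 6 members of the thioredoxin system 2 rose and 3 fell at day 3, and 2 rose and 4 fell at day 7. Txn1, the thioredoxin of cytosol and nucleus, and Txnrd1, its reductase, rose at both days, whereas the mitochondrial Txn2 and Txnrd2 and the cytosolic Txnrd3 fell at both and Txnip fell at day 7. Txn1 had 267, 224, 295, 281 and 263 CPM in day 3 grafts, 234, 209.7, 214, 214 and 328 CPM in day 7 grafts and 95, 92.7, 94.5, 189.8 and 134 CPM in controls. No graft overlapped with a control, and Txn1 changed by 1.20 ± 0.19, adjusted p = 0.000111, at day 3 and 1.03 ± 0.19, adjusted p = 0.000362, at day 7. Txnrd1 had 199, 124, 173, 185 and 119.8 CPM in day 3 grafts, 204, 165, 182, 201 and 220.3 CPM in day 7 grafts and 64.0, 70.4, 64.4, 91.0 and 96.7 CPM in controls. Day 3 grafts 2 and 5 were the lowest grafts and still above every control, and the changes were 1.04 ± 0.16, adjusted p = 8.24e-05, and 1.35 ± 0.17, adjusted p = 8.98e-06. Txn2 had 74.4 to 85.6 CPM at day 3, 67.8 to 88.5 CPM at day 7 and 112 to 202 CPM in controls, with changes of -0.78 ± 0.13 and -0.83 ± 0.13 (adjusted p = 0.000183 and 0.000104). Txnrd2 had 13.3 to 18.1 CPM, 12.9 to 14.4 CPM and 19.7 to 43.0 CPM in these groups, with changes of -0.98 ± 0.18 and -1.11 ± 0.18 (adjusted p = 0.000327 and 0.000117).

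Txnrd3 had 5.88, 7.15, 7.59, 6.30 and 6.81 CPM in day 3 grafts, 4.38, 5.67, 5.19, 6.61 and 8.16 CPM in day 7 grafts and 17.8, 16.6, 11.8, 23.8 and 12.3 CPM in controls. Txnrd3, a reductase with an added glutaredoxin domain that is best known from testis, fell in every graft below the lowest control, by 1.24 ± 0.21 at day 3 (adjusted p = 0.000131) and 1.45 ± 0.21 at day 7 (adjusted p = 3.83e-05). Txnip had 487, 668, 682, 764 and 756 CPM in day 3 grafts, 518, 558, 571, 572 and 577 CPM in day 7 grafts and 592, 939.5, 727, 2480 and 710.3 CPM in controls. Txnip, a protein that binds thioredoxin and restrains glucose uptake, was thus about level in the day 7 grafts and more spread in controls, where control 4 was highest. Its change was -0.49 ± 0.29, adjusted p = 0.158, at day 3, which did not pass, and -0.73 ± 0.29, adjusted p = 0.0383, at day 7, a call that ended without control 2 or without day 7 graft 1, 2, 3 or 4 (adjusted p from 0.0608 to 0.0732). The day 7 change in those fits was -0.73 to -0.70.

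Enzymes that do like work in different compartments or on different substrates were set side by side in 4 pairs, as ratios of deposited TPM in the same library. The pairs were chosen with their fold changes known, so these ratios describe the libraries and were given no test. The ratio of Txn1 to Txn2 was 3.18 to 4.80 in day 3 grafts, 3.38 to 4.66 in day 7 grafts and 0.841 to 1.37 in controls. For Txnrd1 over Txnrd2 it was 2.89 to 6.41 at day 3, 4.93 to 7.04 at day 7 and 0.789 to 2.11 in controls, where control 5 had the highest value. Prdx1 exceeded Prdx3 18.6-fold to 36.6-fold at day 3, 31.2-fold to 41.2-fold at day 7 and 2.96-fold to 3.95-fold in controls. Gpx1 over Gpx4 was 2.92 to 4.33 at day 3, 2.24 to 3.11 at day 7 and 0.526 to 1.5 in controls, so that Gpx4 was the more abundant of this pair in 4 of 5 controls and in no graft. In each pair the grafts of both days lay above all controls.

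**Figure D3:**
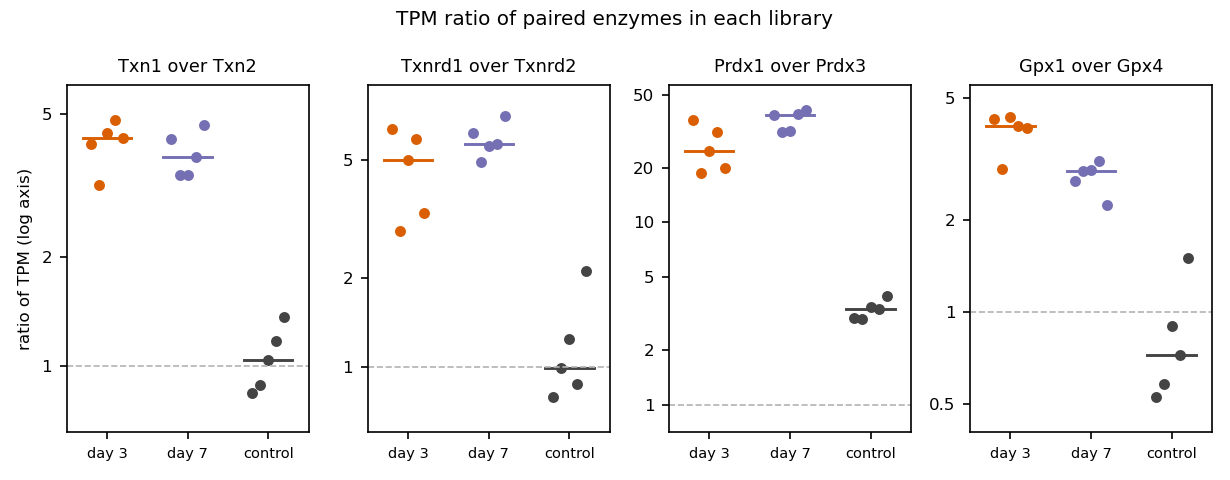
Ratio of the deposited TPM of 2 enzymes in the same library, on log axes, for day 3 grafts, day 7 grafts and controls from left to right, with a bar at each median of 5 libraries and a dashed line at equal levels. In all 4 panels the 10 grafts lie above the 5 controls, most widely for Prdx1 over Prdx3.

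Of the 10 thioredoxin-domain proteins tested, 5 rose, 2 fell and 3 were not called at each day. The largest rise was that of Txndc5, a protein disulfide isomerase of the endoplasmic reticulum known from matrix-secreting fibroblasts. Txndc5 had 360.0, 304, 313, 343 and 429 CPM in day 3 grafts, 353, 399, 396, 353 and 375 CPM in day 7 grafts and 139.6, 118, 133, 149.5 and 197 CPM in controls. Grafts and controls did not overlap, and Txndc5 changed by 1.26 ± 0.13, adjusted p = 2.58e-06, at day 3 and 1.37 ± 0.13, adjusted p = 1.26e-06, at day 7. Txndc17 had 146, 138, 174, 154 and 145 CPM in day 3 grafts, 115, 115, 114, 99.2 and 155 CPM in day 7 grafts and 60.7, 60.6, 57.2, 104 and 78.1 CPM in controls. Txndc17, a small cytosolic thioredoxin-like reductase, was above all controls in day 3 grafts, and at day 7 only graft 4 lay below control 4. It rose by 1.11 ± 0.16 (adjusted p = 4.35e-05) and 0.75 ± 0.16 (adjusted p = 0.00096). Txnl1, a thioredoxin bound to the proteasome, rose by 0.62 and 0.58 (adjusted p = 0.000479 and 0.000811). Txndc9, which works with a cytosolic chaperonin, rose by 0.56 and 0.42 (adjusted p = 6.52e-05 and 0.000721), and neither gene's grafts overlapped with controls. Txndc12, of the endoplasmic reticulum, rose by 0.47 and 0.51 (adjusted p = 0.00279 and 0.00143).

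Txndc16 had 26.8, 27.2, 20.7, 23.1 and 27.3 CPM in day 3 grafts, 35.5, 42.0, 33.2, 36.6 and 28.9 CPM in day 7 grafts and 44.9, 46.6, 55.7, 29.0 and 49.0 CPM in controls. Txndc16, another protein of the endoplasmic reticulum, was lowest in day 3 grafts, none of which reached a control or a day 7 graft. It changed by -0.82 ± 0.16, adjusted p = 0.000522, at day 3 and -0.33 ± 0.16, adjusted p = 0.0819, at day 7. Control 4 was low for this gene where it was high for most others, and without it the day 7 change passed at -0.47 (adjusted p = 0.00278). The day 3 call ended on the deposited TPM, at -0.51. Txnl4b had 8.01, 9.18, 10.2, 8.28 and 7.16 CPM in day 3 grafts, 8.42, 8.80, 9.0, 8.31 and 9.44 CPM in day 7 grafts and 15.7, 14.2, 10.7, 20.7 and 8.38 CPM in controls. Txnl4b, a splicing protein with a thioredoxin fold, overlapped with controls through control 5, and changed by -0.65 ± 0.20, adjusted p = 0.013, at day 3 and -0.59 ± 0.20, adjusted p = 0.0186, at day 7. Both calls ended on the deposited TPM and without controls 2 and 4 together. Txndc15, a protein of primary cilia, changed by -0.31 and -0.34 (adjusted p = 0.0598 and 0.041). Its day 7 call ended when any 1 library other than control 1, 2 or 3, day 3 graft 4 or day 7 graft 2 was left out (adjusted p from 0.0523 to 0.0946) and on the deposited TPM, where both changes turned direction, to 0.02 and 0.08. Where leaving out 1 library ended the call, the day 7 change of Txndc15 was -0.35 to -0.18. Its day 3 change passed without control 3, at -0.39 (adjusted p = 0.0217). Txndc11 changed by 0.19 and 0.23 (adjusted p = 0.109 and 0.057), and both passed without control 5, at 0.25 and 0.29, the day 7 change also without day 7 graft 4, at 0.27. The splicing protein Txnl4a changed by -0.12 and -0.07 (adjusted p = 0.532 and 0.714), and on the deposited TPM it was called higher, at 0.62 and 0.59 (adjusted p = 0.00495 and 0.00636). Txndc8 had no count and Txndc2, a protein of sperm, at most 0.33 CPM.

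Among glutaredoxins the cytosolic Glrx rose and the other 3 fell, of which Glrx2 turned direction on the deposited TPM. Glrx had 143, 67.9, 121, 151 and 76.8 CPM in day 3 grafts, 115, 70.9, 89.0, 79.3 and 150.5 CPM in day 7 grafts and 22.6, 15.4, 24.4, 18.8 and 48.6 CPM in controls. Control 5 was the highest control and lay below the lowest graft, and Glrx changed by 2.15 ± 0.31, adjusted p = 4.22e-05, at day 3 and 2.01 ± 0.31, adjusted p = 6.86e-05, at day 7. Glrx3 had 112, 121, 126, 112 and 116 CPM in day 3 grafts, 122, 119.9, 114, 98.6 and 137 CPM in day 7 grafts and 145, 152, 117, 302 and 181 CPM in controls. Glrx3, a cytosolic carrier of iron-sulfur clusters, had grafts near the lower controls and control 4 far above, and changed by -0.53 ± 0.19, adjusted p = 0.024, at day 3 and -0.53 ± 0.19, adjusted p = 0.025, at day 7. Both calls ended on the deposited TPM, and the day 7 call also without day 7 graft 4 (adjusted p = 0.0698). The day 3 call of Glrx3 also ended with only the 2 groups compared (adjusted p = 0.0511). It ended too without day 3 graft 1 and day 7 graft 5 together (adjusted p = 0.0528). Glrx5 had 14.1, 22.5, 18.6, 17.0 and 20.6 CPM in day 3 grafts, 13.9, 13.9, 12.8, 11.5 and 21.5 CPM in day 7 grafts and 33.2, 31.7, 24.9, 47.2 and 22.0 CPM in controls. Glrx5, which serves iron-sulfur clusters in mitochondria, was lowest at day 7 apart from graft 5, and changed by -0.75 ± 0.21, adjusted p = 0.0062, at day 3 and -1.10 ± 0.21, adjusted p = 0.000465, at day 7. The mitochondrial Glrx2 fell by 0.42 ± 0.11 and 0.32 ± 0.10 (adjusted p = 0.00314 and 0.0147), with grafts at 20.7 to 22.4 CPM and 21.2 to 24.6 CPM, below controls at 25.1 to 37.7 CPM. On the deposited TPM its changes were 0.07 at day 3 and 0.09 at day 7, neither of which passed.

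Glutathione transferases held the largest falls. At each day 13 of the 18 tested were lower, with a median log2 change over the 18 of -1.08 at day 3 and -1.4 at day 7, and 1 was higher at day 3 and none at day 7. Gstz1 had 33.8, 56.4, 34.3, 27.9 and 42.5 CPM in day 3 grafts, 26.5, 40.4, 33.5, 34.6 and 26.5 CPM in day 7 grafts and 604, 500.5, 346, 1160 and 454 CPM in controls. Gstz1, which isomerises maleylacetoacetate in the breakdown of phenylalanine and tyrosine, had the highest mean TPM among the Gst genes in controls. The highest graft, day 3 graft 2, stood far below the lowest control, control 3, and Gstz1 changed by -3.88 ± 0.27, adjusted p = 1.29e-07, at day 3 and -4.13 ± 0.27, adjusted p = 7.05e-08, at day 7. Gsta3 had 1.48, 3.2, 1.01, 2.88 and 0.609 CPM in day 3 grafts, 2.66, 2.90, 2.49, 4.87 and 5.08 CPM in day 7 grafts and 83.6, 54.7, 37.1, 99.7 and 61.9 CPM in controls. Gsta3, an alpha-class enzyme whose gene lies on chromosome 1 of mm10 (bases 21240589 to 21265661), apart from Gsta4 on chromosome 9, thus fell to a few CPM, with changes of -5.34 ± 0.46, adjusted p = 5.27e-07, at day 3 and -4.24 ± 0.38, adjusted p = 5.46e-07, at day 7. At such low graft levels the fitted size depends on the small offset of the fit.

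Gsta4, the enzyme for the lipid aldehyde 4-hydroxynonenal, averaged 1.07 ± 0.416 CPM at day 3, 1.67 ± 0.306 CPM at day 7 and 26.9 ± 13.3 CPM in controls (SD, n = 5 each), with changes of -4.58 ± 0.47 and -3.88 ± 0.42 (adjusted p = 2.11e-06 and 2.61e-06). Gstk1, of mitochondria and peroxisomes, averaged 11.6 ± 2.90 CPM, 7.55 ± 0.867 CPM and 45.9 ± 28.4 CPM in these groups, with changes of -1.85 ± 0.32 and -2.43 ± 0.34 (adjusted p = 0.000165 and 2.82e-05). In the theta class Gstt2 fell by 1.59 and 1.62 (adjusted p = 3.56e-05 and 2.72e-05), with no overlap of grafts and controls. Gstt1 fell by 0.82 and 1.41 (adjusted p = 0.0384 and 0.0024), and its day 3 call ended without any 1 of control 1, 2 or 4 or day 3 graft 1, 3 or 5 (adjusted p from 0.0555 to 0.089). The day 3 change in those fits was -0.84 to -0.45. The one transferase called higher was Gstt3. Gstt3 had 8.29, 12.1, 8.10, 9.97 and 10.3 CPM in day 3 grafts, 8.57, 10.5, 8.31, 9.07 and 7.33 CPM in day 7 grafts and 7.22, 7.54, 5.74, 10.7 and 4.40 CPM in controls. The groups overlapped, its changes were 0.50 ± 0.20, adjusted p = 0.0446, at day 3 and 0.35 ± 0.21, adjusted p = 0.156, at day 7, and the day 3 call ended when any 1 library other than control 4, day 3 graft 1 or 3 or day 7 graft 2 or 5 was left out (adjusted p from 0.0505 to 0.131). Where it ended, the day 3 change was 0.34 to 0.53. Without control 4 the day 7 change passed, at 0.54 (adjusted p = 0.0211).

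The mu-class genes lie together on chromosome 3 of mm10, from Gstm5 at base 107895821 to the end of Gstm4 at base 108044894, and did not move alike. Gstm7 changed by -3.35 and -3.57 (adjusted p = 1.62e-05 and 1.01e-05) and Gstm6 by -1.99 and -1.65 (adjusted p = 0.000165 and 0.000498), both with at most 1.20 CPM in any graft. Gstm1, the most abundant mu-class gene of the controls, changed by -1.04 and -1.12 (adjusted p = 0.00932 and 0.00596), and Gstm4 by -0.61 and -0.80 (adjusted p = 0.0221 and 0.00492). The day 3 call of Gstm4 ended without day 3 graft 4 (adjusted p = 0.0575). Gstm5 changed by -0.57 and -0.66 (adjusted p = 0.0747 and 0.0442). Its day 7 call ended when any 1 library other than control 3 or 5, day 3 graft 4 or day 7 graft 5 was left out (adjusted p from 0.0509 to 0.0913), and its day 3 change passed without control 3, at -0.76 (adjusted p = 0.0177). Where the day 7 call of Gstm5 ended, its change was -0.70 to -0.34. Gstm2 stayed uncalled at 0.20 and 0.20 (adjusted p = 0.51 and 0.503), with 61.7 to 104 CPM at day 3, 69.5 to 97.8 CPM at day 7 and 47.2 to 150.4 CPM in controls. Without control 4, the 1 control above 65.6 CPM, Gstm2 was called higher, by 0.51 (adjusted p = 0.00757) and 0.50 (adjusted p = 0.00818).

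Of the pi class on chromosome 19, Gstp1 changed by 0.45 ± 0.20 and -0.10 ± 0.20 (adjusted p = 0.0662 and 0.69) and Gstp2 by 0.63 ± 0.38 and 0.09 ± 0.40 (adjusted p = 0.165 and 0.857). Without control 4 both were called higher at day 3, at 0.64 (adjusted p = 0.00366) and 1.01 (adjusted p = 0.019), and Gstp1 also without day 7 graft 5, at 0.45 (adjusted p = 0.0328). Gstp3 fell by 2.88 and 3.07 (adjusted p = 0.000409 and 0.000257), to 0.48 to 0.792 CPM at day 3 and 0.339 to 0.85 CPM at day 7. In controls it had 5.6, 6.67, 8.13, 1.3 and 7.2 CPM, and control 4, the lowest of these, was also the control with the fewest B cell and lymph node markers. Those markers summed to 14.2 to 56.3 CPM at day 3, 15.4 to 147 CPM at day 7 and 194 to 2687 CPM in controls, all 10 fell at both days, and their part in the fall of Gstp3 was not tested. The omega-class Gsto1, a reductase of dehydroascorbate, fell by 0.92 ± 0.16 at day 3 (adjusted p = 0.000197) and changed by -0.36 ± 0.16 at day 7 (adjusted p = 0.0662), which passed without control 3, at -0.49 (adjusted p = 0.00788). Gsto2 fell by 1.11 and 1.38 (adjusted p = 0.011 and 0.00315) and had 0.48 to 1.17 CPM at day 3, 0.51 to 0.828 CPM at day 7 and 1.09 to 3.41 CPM in controls. Without controls 2 and 4 together its day 3 change was -0.65 (adjusted p = 0.083). Transferases of 1 class can be near-identical in sequence, and the sources used here do not say how shared reads were divided between them, so values of the alpha, mu, pi and theta genes are uncertain to that extent. The 4 untested transferases Gsta1, Gsta2, Gstm3 and Gstt4 had at most 0.378 CPM in any library.

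All 3 microsomal transferases, membrane enzymes that conjugate glutathione and reduce lipid peroxides, fell at both days. Mgst1 had 188, 275, 214, 288 and 277 CPM in day 3 grafts, 157, 196, 155, 170.0 and 244 CPM in day 7 grafts and 664, 727, 463, 1711 and 988 CPM in controls. Every control lay above every graft, and Mgst1, the most abundant member of all in control fat per gene length, changed by -1.74 ± 0.27, adjusted p = 6.34e-05, at day 3 and -2.17 ± 0.26, adjusted p = 7.52e-06, at day 7. Mgst2 had 1.84, 2.99, 2.11, 2.31 and 2.97 CPM in day 3 grafts, 3.71, 2.63, 3.09, 4.39 and 3.99 CPM in day 7 grafts and 32.9, 34.8, 25.4, 26.4 and 18.7 CPM in controls. Mgst2, which can also make leukotriene C4, had no graft above 4.39 CPM and no control under 18.7 CPM, with changes of -3.47 ± 0.23, adjusted p = 1.29e-07, at day 3 and -2.95 ± 0.21, adjusted p = 1.26e-07, at day 7. Mgst3 had 20.1 to 49.7 CPM at day 3, 15.8 to 28.0 CPM at day 7 and 56.9 to 174 CPM in controls, and fell by 1.25 and 1.93 (adjusted p = 0.00199 and 7.33e-05).

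Read by compartment, of 8 members known mainly from mitochondria 6 fell and 1 rose at day 3 and 7 fell and 1 rose at day 7, the rise being that of Prdx5 each time and 1 of the falls at each day being that of Glrx2, which turned on the deposited TPM. Of 7 members of the endoplasmic reticulum 4 rose at both days, Prdx4, Gpx7, Txndc5 and Txndc12, and Txndc16 fell at day 3. Of 32 cytosolic members 11 rose and 16 fell at day 3, and 8 rose and 17 fell at day 7. Those shares were close to the shares of all 56 members, of which 17 rose and 28 fell at day 3. At day 7, 13 of the 56 rose and 30 fell. Over all genes 30.1% rose and 30.2% fell at day 3, and 32.3% rose and 28.4% fell at day 7. Differences between compartments were not tested. The places used here are textbook assignments, and several members, Gpx1, Gpx4, Sod1 and Prdx5 among them, are found in more than 1 compartment.

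The summed level of all 65 members hardly separated the groups, at 10750 ± 759 TPM in day 3 grafts, 10869 ± 471 TPM in day 7 grafts and 10072 ± 1938 TPM in controls (SD, n = 5 each), with control 4 the highest library at 13364 TPM. The make-up differed more. Peroxiredoxins summed to 3170 ± 663 TPM at day 3, 4001 ± 403 TPM at day 7 and 1291 ± 170.5 TPM in controls, and no graft was below 2483 TPM or control above 1526 TPM. Microsomal transferases summed to 577 ± 96.6 TPM, 456 ± 73.7 TPM and 1652 ± 496 TPM in those groups, and the other transferases to 781 ± 67.4 TPM, 748 ± 65.4 TPM and 1528 ± 338 TPM. Superoxide dismutases and catalase summed to 794 ± 73.4 TPM, 736 ± 26.8 TPM and 1536 ± 300.1 TPM, again with no overlap of grafts and controls. Thioredoxin-domain proteins summed to 808 ± 40.7 TPM, 807 ± 28.2 TPM and 391 ± 52.1 TPM. For glutathione peroxidases, at 3276 ± 297 TPM, 2803 ± 170 TPM and 2597 ± 605 TPM, the groups overlapped.

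Prdx1 alone made up 17.2 ± 4.46% of the members' TPM at day 3, 24.9 ± 1.70% at day 7 and 6.02 ± 1.11% in controls. Gpx1 made up 18 ± 3.00%, 13.1 ± 2.03% and 8.01 ± 1.37% in those groups. The share of Mgst1 was 4.79 ± 1.05% at day 3, 3.72 ± 0.507% at day 7 and 14.6 ± 2.67% in controls, and that of Gstz1 was 0.440 ± 0.175%, 0.388 ± 0.123% and 6.03 ± 0.817%. By mean TPM the leading members were Gpx1 and Prdx1 in day 3 grafts, Prdx1 and Gpx1 in day 7 grafts, and Mgst1, Sod1 and Gpx4 in controls. At day 3 the ranges of Gpx1 (1478 to 2555 TPM) and Prdx1 (1280 to 2772 TPM) overlapped, and at day 7 Prdx1 (2428 to 2928 TPM) lay above Gpx1 (1182 to 1612 TPM). In controls Mgst1 (994 to 2119 TPM), Sod1 (834 to 1443 TPM) and Gpx4 (660 to 1534 TPM) overlapped.

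**Figure D4:**
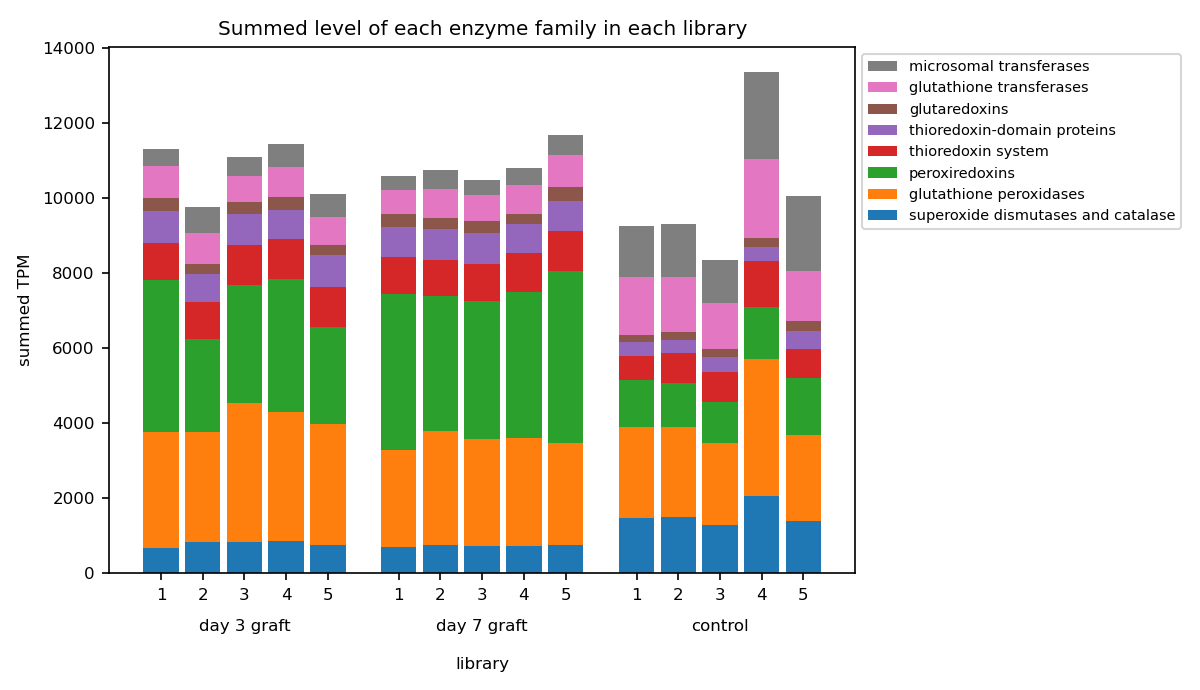
Summed deposited TPM of the members of each family in each of the 15 libraries, stacked, with day 3 grafts, day 7 grafts and controls from left to right. The peroxiredoxin part is at least 2483 TPM in every graft and at most 1526 TPM in the controls, while the microsomal and other transferases and the dismutases with catalase take more of the bar in controls.

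Between day 7 and day 3 grafts no member was called by limma, where 3.18% of all genes tested were higher at day 7 and 1.71% lower. These counts over all genes, 510 higher and 274 lower, moved with single libraries. They were 943 and 620 without control 4 and 943 and 527 without day 7 graft 5, and without any 1 of day 3 grafts 3 to 5 or day 7 grafts 1 to 4 they were 228 to 289 and 86 to 121. At an unadjusted p under 0.05 there were 8 members, 2 higher and 6 lower at day 7, against 3241 of all genes, or 20.2%. Libraries of the 2 days did not overlap for Gsto1, with 54.6 to 70.6 CPM at day 7 and 38.4 to 49.7 CPM at day 3, for Txndc16 and for Gpx1. The share of all genes without such overlap was not counted, so this does not set these members apart. Gsto1 changed by 0.56 ± 0.16, adjusted p = 0.0583, Txndc16 by 0.49 ± 0.16, adjusted p = 0.096, and Gpx1 by -0.58 ± 0.25, adjusted p = 0.204. Sod3 changed by -0.78 ± 0.26, adjusted p = 0.0967, Gstp1 by -0.55 ± 0.20, adjusted p = 0.142, Sod2 by -0.54 ± 0.24, adjusted p = 0.211, Mgst3 by -0.68 ± 0.30, adjusted p = 0.218, and Txndc17 by -0.35 ± 0.17, adjusted p = 0.246. Without control 4, which entered this fit through the shared spread, 2 members were called higher, Gsto1 at 0.55 (adjusted p = 0.0156) and Txndc16 at 0.48 (adjusted p = 0.0211), and 3 lower, where 5.72% of all genes were called higher and 3.76% lower, shares close to those of the members. Those lower were Sod3 at -0.79 (adjusted p = 0.026), Gpx1 at -0.58 (adjusted p = 0.0329) and Gstp1 at -0.56 (adjusted p = 0.0409). Gsto1 also passed without control 3, at 0.56 (adjusted p = 0.027), and Gstp1 without day 7 graft 5, at -0.73 (adjusted p = 0.0215).

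Genes that feed or accompany these enzymes were read from lists of the pathway, of which only those with the largest changes are named. A gene given for 1 day may also have changed at the other, where it was not among those with the largest changes. Counts of each list below stand beside 30.1% of all genes tested higher and 30.2% lower at day 3. At day 7 these shares were 32.3% and 28.4%. No list was tested against them, and a list with shares near these does not stand out from all genes. Of 12 NADPH suppliers 5 fell and 1 rose at day 3 and 6 fell and 1 rose at day 7. Me1, the cytosolic malic enzyme of fat, averaged 59.9 ± 10.6 CPM at day 3, 52.0 ± 5.23 CPM at day 7 and 2194 ± 1015 CPM in controls, and changed by -5.05 ± 0.27, adjusted p = 3.84e-08, and -5.24 ± 0.27, adjusted p = 1.42e-08. Aldh1l1, a folate enzyme that yields NADPH, changed by -3.11 at day 3 and -4.65 at day 7 (adjusted p = 3.86e-07 and 5.7e-08), and was lower at day 7 than at day 3 (by 1.53 on the log2 scale, adjusted p = 0.0104). The mitochondrial malic enzyme Me2 rose by 1.33 ± 0.27 at day 3 (adjusted p = 0.000751), and Nnt, the mitochondrial transhydrogenase, by 0.73 ± 0.21 at day 7 (adjusted p = 0.00822).

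Of 16 genes of glutathione synthesis and recycling, 5 rose and 2 fell at day 3 and 6 rose and 4 fell at day 7. Gsr, the reductase that restores glutathione, averaged 98.6 ± 23.5 CPM at day 3 and 48.7 ± 17.2 CPM in controls, a rise of 1.05 ± 0.22 (adjusted p = 0.00104). Dpep2, a dipeptidase that acts on leukotriene and cysteinyl-glycine peptides, rose by 4.85 and 4.15 (adjusted p = 6.71e-07 and 1.93e-06). Slc7a11, the cystine importer, rose by 1.99 ± 0.78 at day 7 (adjusted p = 0.0386), a call that ended without control 1 or 4 or day 7 graft 1, 3 or 5 (adjusted p from 0.0553 to 0.0994). Without control 4 its change was 1.01 (adjusted p = 0.0994). Oplah, the 5-oxoprolinase, fell by 2.76 and 3.04 (adjusted p = 7.87e-07 and 3.78e-07), and Slc25a39, a mitochondrial glutathione carrier, by 0.89 and 0.99 (adjusted p = 0.00116 and 0.000493).

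Of 16 tested genes of other glutathione-dependent detoxification, 7 rose and 5 fell at day 3 and 7 rose and 4 fell at day 7. Abcc3, an exporter of conjugates, rose by 3.25 and 3.26 (adjusted p = 1.22e-06 and 1.08e-06), and Esd, an S-formylglutathione hydrolase, by 1.97 at day 3 (adjusted p = 9.54e-06). Hpgds, a sigma-class transferase that makes prostaglandin D2, rose by 2.54 at day 7 (adjusted p = 3.3e-05). It was higher at day 7 than at day 3 (by 1.23 on the log2 scale, adjusted p = 0.0302), although the libraries of the 2 days overlapped. Hagh, a glyoxalase, fell by 1.56 and 1.52 (adjusted p = 3.91e-05 and 4.45e-05), and Ptges, which makes prostaglandin E2, by 1.03 and 1.32 (adjusted p = 0.0004 and 5e-05). Ltc4s, the leukotriene C4 synthase, was lower at day 7 than at day 3 (by 2.03 on the log2 scale, adjusted p = 0.0126).

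Of 21 redox partners and genes of selenoprotein synthesis 3 rose and 9 fell at day 3 and 4 rose and 9 fell at day 7. Srxn1, the sulfiredoxin that repairs overoxidised peroxiredoxins, averaged 150.5 ± 29.7 CPM at day 3, 158 ± 47.2 CPM at day 7 and 36.8 ± 14.6 CPM in controls, rising by 2.11 ± 0.27 and 2.16 ± 0.27 (adjusted p = 1.26e-05 and 9.78e-06). Nxn, nucleoredoxin, rose by 1.36 and 2.09 (adjusted p = 1.11e-05 and 2.62e-07) and was higher at day 7 than at day 3 (0.73, adjusted p = 0.012). Sephs2, which makes the selenium donor for selenoproteins such as Gpx1, Gpx4 and the thioredoxin reductases, fell by 1.53 at day 3 (adjusted p = 2.52e-06). Sesn3, a sestrin, fell by 1.97 and 1.28 (adjusted p = 3.81e-06 and 0.000112), and Msra, a methionine sulfoxide reductase, by 1.64 at day 7 (adjusted p = 2.76e-05).

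Of 12 tested enzymes that make oxidants 10 rose and 1 fell at day 3 and 7 rose and 1 fell at day 7, beside the rise of 11 of the 12 macrophage markers. Another list moved too, in that 5 of 10 neutrophil markers rose at each day and 1 fell at day 3, and the list summed to 78.1 to 459 CPM at day 3, 156 to 941 CPM at day 7 and 19.7 to 186 CPM in controls. The part of either cell type in these changes was not tested. Nos2, the inducible nitric oxide synthase, rose by 4.61 and 3.62 (adjusted p = 4e-05 and 0.000295), and Nox4 by 2.62 at day 7 (adjusted p = 9.45e-05). Aox1, aldehyde oxidase, fell by 1.62 and 2.37 (adjusted p = 0.000349 and 1.96e-05). Of 16 regulators of the antioxidant response 9 rose and 6 fell at day 3 and 8 rose and 5 fell at day 7. Bach1, a repressor of antioxidant genes, rose by 2.01 and 1.59 (adjusted p = 8.53e-07 and 5.07e-06), Maff by 2.65 at day 3 (adjusted p = 0.000214) and Hif1a by 1.83 at day 7 (adjusted p = 1.46e-05). Ppargc1a, a coactivator of mitochondrial and antioxidant genes, fell by 4.56 and 5.34 (adjusted p = 3.04e-06 and 1.92e-06). Mlxipl, a glucose-sensing factor, fell by 3.96 and 6.01 (adjusted p = 2.75e-06 and 9.91e-07).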

How the data were processed

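Per the labels' protocols, poly(A) RNA of 15 mouse adipose samples was sequenced as stranded paired reads. RSEM 1.3.1, STAR 2.7.1a, cutadapt 2.8 and the build mm10 are listed in the submitters' processing notes, with no role given. The authors deposited 1 table of estimated counts per gene, RPKM and TPM for each sample, and per the file headers no further scaling is named. Counts were written with commas as digit marks, which were removed, and RPKM was used in no test. Samples were grouped by their labels into day 3 grafts, day 7 grafts and controls (5 each).

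Of 55471 genes, 16051 with at least 0.3894 CPM (10 counts at the median library) in 5 samples and 15 counts in all were tested. Library sizes were scaled by trimmed mean of M values (trims of 30% and 5%), CPM are counts scaled to that size, and limma 3.58.1 (voom, R 4.3.3) fitted the 3 groups together with no covariate. Adjusted p-values are Benjamini-Hochberg over all genes tested. Summaries and plots were made with Python 3.11.15, pandas 2.3.3 and matplotlib 3.10.9, and the fit was tested on simulated data. Depth was 17.1 to 32 M counts, and no pair of libraries was a repeat.

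The members, lists and tests were chosen with earlier results of these data known. Values in every sample are given for 25 members: in each family the one with the highest mean TPM, and the called ones with the highest and lowest log2 change in each comparison with control among those with a mean of 5 CPM in a group. Other members are named with a level or change. From each pathway list up to 2 called genes per direction and comparison, with the largest change and at least 5 CPM, are named. A gene that this rule selects is not reported here. Other scalings, filters, models, units and sets of samples were tried, as were fits without each library.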

Additional observations from a re-analysis of the deposited data

Results flagged for a closer look

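The members with values in every sample were searched for libraries far from the others of their group, which gave 75 sets of 5 libraries. In 6 of them the gap of the highest library to its nearest neighbour passed Dixon's 95% critical value of 0.71 of the whole range, and chance alone passes about 1 in 20 such sets. Day 7 graft 5 stood out in 3 genes. It had 328 CPM of Txn1, against 210 to 234 CPM in the other day 7 grafts, 155 CPM of Txndc17, against 99.2 to 115 CPM, and 21.5 CPM of Glrx5, against 11.5 to 13.9 CPM. The same library held 147 CPM of B cell and lymph node markers and 14435 CPM of macrophage markers, the highest of the day 7 grafts in both. Control 4 had 735 CPM of Sod1, against 274 to 397 CPM in the other controls, and 2480 CPM of Txnip, against 592 to 940 CPM. Control 5 had 48.6 CPM of Glrx, against 15.4 to 24.4 CPM in the other controls, and was also the control with the most macrophage markers, at 3885 CPM, against 1362 to 1761 CPM. The part of these marker differences in the outlying values was not tested.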

How the results depend on the processing

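Of the 45 members called at day 3, 36 kept their call in each of the 28 other settings that gave them a value, and of the 43 at day 7 also 36. Those that did not were Glrx2, Glrx3, Gstm4, Gsto2, Gstt1, Gstt3, Prdx6, Txndc16 and Txnl4b at day 3 and Glrx2, Glrx3, Gstm5, Prdx5, Txndc15, Txnip and Txnl4b at day 7. Some of these calls also ended in settings not named with the gene above. With the filter at 1 CPM, 44 of the members called at day 3 and 42 of those called at day 7 were tested. Without each library in turn, members higher and lower numbered 15 to 20 and 27 to 32 at day 3 and 12 to 17 and 26 to 32 at day 7. Of all genes, 27.5% to 31.5% were higher and 27.6% to 32.3% lower at day 3 in those fits. For day 7 the shares were 29.5% to 33.2% and 26.1% to 31.3%. Between day 7 and day 3 grafts, where none was called, the count of members higher was 1 with upper-quartile scaling and with library totals, and 2 with sample quality weights, log2(TPM + 1), log2(TPM + 0.1), only the 2 groups compared, or without controls 2 and 4. Members lower at day 7 numbered 9 with sample quality weights, 2 with only the 2 groups compared, 3 without controls 2 and 4, and 2 without day 3 graft 1 and day 7 graft 5. Without each library in turn these counts were 0 to 2 higher and 0 to 3 lower. Over all genes the lower calls were 2967 and 2952 at day 3 and 2585 and 2507 at day 7 on log2(TPM + 1) and log2(TPM + 0.1), against 4846 at day 3 and 4559 at day 7 on counts. The TPM splits of all genes were 6301 and 6409 higher at day 3 and 7396 and 7403 at day 7, against 4838 and 5177. Day 7 over day 3 gave 2128 higher and 1533 lower genes with quality weights and 654 lower with only the 2 groups compared, against 510 and 274.

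Directions turned as follows, called in the counts only for Glrx2 and for Txndc15 at day 7, and the cause was not tested. The median change of all genes was itself 0.216 at day 3 and 0.334 at day 7 on log2(TPM + 1). It was 0.284 and 0.427 on log2(TPM + 0.1), against -0.014 and 0.0311 on counts. On log2(TPM + 1) and log2(TPM + 0.1), the day 3 and day 7 changes were 0.07 and 0.09 for Glrx2, 0.15 and 0.18 for Gpx3 and 0.02 and 0.08 for Txndc15. On these scales Sod2 was 0.04 at day 3, and at day 7 Gpx8 was 0.00, Gsto1 0.05 and Gstp1 0.29, while Txndc16 was 0.00 and 0.01. Txnl4a was 0.62 and 0.69 at day 3 and 0.59 and 0.65 at day 7, with adjusted p from 0.00452 to 0.00636. For day 7 over day 3, Gpx4 was 0.05 and Prdx3 0.07 on both. With quality weights Gpx3 was 0.03 and Txnl4a 0.01 at day 3, Txnl4a 0.03 at day 7 and Glrx3 -0.07 for day 7 over day 3. Without controls 2 and 4, Gpx3 and Txnl4a were 0.07 at day 3, Gstp1 and Txnl4a 0.09 at day 7 and Glrx3 -0.02 for day 7 over day 3. Without day 3 graft 1 and day 7 graft 5, Gstp2 was -0.14 and Sod3 -0.02 at day 7 and Glrx3 -0.07 for day 7 over day 3. Sod3 at day 7 was also -0.04 with median-of-ratios scaling and with only the 2 groups compared, -0.06 with upper-quartile scaling, -0.02 with a 1 CPM filter and -0.00 with limma-trend. Glrx3 for day 7 over day 3 was -0.02 with median-of-ratios scaling and -0.01 with no filter and with only the 2 groups compared, and Txnl4a at day 7 was 0.01 with library totals. Without each library in turn, day 3 changes ran from -0.25 to 0.12 for Gpx3 and -0.21 to 0.07 for Txnl4a, and day 7 changes from -0.37 to 0.04 for Gpx3, -0.28 to 0.09 for Gstp1, -0.19 to 0.46 for Gstp2, -0.13 to 0.22 for Sod3 and -0.17 to 0.11 for Txnl4a. Those of day 7 over day 3 ran from -0.07 to 0.07 for Glrx3, -0.15 to 0.01 for Gpx4, -0.02 to 0.12 for Gpx7 and -0.01 to 0.11 for Txnl4b.

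The labels number replicates 1 to 5 in each group, but same-numbered libraries did not deviate together (5 of 15 pairs had r over 0.1, range -0.183 to 0.341). With the replicate block 16 members were higher and 28 lower at day 3, 13 and 29 at day 7, and none between the days, and the calls of Prdx6 at day 3 and Txndc15 at day 7 ended. Of all genes 30.1% were then higher and 30.5% lower at day 3, and 32% and 28.6% at day 7. Low levels limit Gsta4, Gsta3, Gstm6, Gstm7, Gstp3 and Gsto2, whose fitted fold depends on the offset of the fit. The labels do not say whether replicates are separate animals.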
